A study of Mus musculus with 14 samples.

Results

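The Hox genes of the Hoxa, Hoxb, Hoxc and Hoxd clusters were taken by name, which gave 38 genes (10 of Hoxa, 10 of Hoxb, 9 of Hoxc and 9 of Hoxd) of the 21938 protein-coding genes that GENCODE M21 annotates on the chromosomes used. A gene region was the gene plus 1 kb before its transcription start (TSS), and a cluster span ran from the first to the last base of the gene regions of its members. On GRCm38 (mm10) the spans are chr6:52162417-52261880 for Hoxa (99.5 kb), chr11:96193316-96368256 for Hoxb (174.9 kb), chr15:102920103-103036852 for Hoxc (116.8 kb) and chr2:74667310-74765142 for Hoxd (97.8 kb). Together they hold 489.0 kb, or 0.0179% of the genome.

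Chromatin immunoprecipitation and sequencing was done in 81K1 cells, which are mouse embryonic stem cells (mESC), for 2 proteins (Smarca4 and Ezh2) and 3 histone marks (H3K4me3, H3K27ac and H3K27me3), by 5 antibodies in all. 81K1 goes back to 1 clone (K1) of OG2 mESC, and all groups carry the same cassette at Rosa26, an shRNA against Smarcb1 that doxycycline switches on. Control cells received no doxycycline, and Smarcb1 kd cells received 1 µg/ml doxycycline for 72 h. There was 1 library per antibody and condition (10 libraries), so that there is no spread between replicates, no test between conditions, and an effect of doxycycline itself cannot be told apart from that of the shRNA. The labelled cell type was checked with 6 stem cell genes (Pou5f1, Sox2, Nanog, Esrrb, Zfp42 and Tdgf1): the gene regions of 6 of 6 held H3K4me3 and H3K27ac islands in control and after kd.

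Hox genes encode homeodomain transcription factors that give the body axis its regional identity, and their order along a cluster follows the order in which they are used from head to tail. In stem cells the clusters are a classical target of Polycomb repressive complex 2, whose catalytic subunit Ezh2 methylates H3K27. Promoters that carry H3K27me3 together with the activation-linked mark H3K4me3 are called bivalent, H3K27ac marks active promoters and enhancers, and Smarca4 is the ATPase of the BAF chromatin remodelling complex, of which Smarcb1 is a subunit.

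The deposited lists hold called regions with no read counts. Depth is therefore unknown, and where no region was called, binding may have been below what the caller could detect. The lists held 79014 control and 72339 kd peaks of Smarca4, 6708 and 5364 of Ezh2, and 22909 and 18320 islands of H3K27me3, 39091 and 51100 of H3K27ac and 26130 and 33506 of H3K4me3. The H3K4me3 list was thus longer after kd, and the Ezh2 list shorter. Regions of control and kd were taken as shared where they had at least 1 bp in common.

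The DNA of Hox promoters is shown by 4 examples, which stand for the H3K4me3 patterns described below (called in both lists for Hoxd9 and Hoxd11, in the kd list alone for Hoxa10, in neither for Hoxa2). Each is the 250 bases before the RefSeq start (GRCm38.p6), 5′ to 3′ on the gene's strand, at chr2:74697513-74697762 (+) for Hoxd9, chr2:74682073-74682322 (+) for Hoxd11, chr6:52234940-52235189 (-) for Hoxa10 and chr6:52164832-52165081 (-) for Hoxa2. Capitals mark CG dinucleotides.
Hoxd9: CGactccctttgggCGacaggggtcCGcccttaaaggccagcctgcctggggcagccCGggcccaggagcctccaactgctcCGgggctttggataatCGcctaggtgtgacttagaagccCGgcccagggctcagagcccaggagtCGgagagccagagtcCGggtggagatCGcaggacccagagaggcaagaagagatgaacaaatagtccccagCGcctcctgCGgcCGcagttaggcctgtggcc
Hoxd11: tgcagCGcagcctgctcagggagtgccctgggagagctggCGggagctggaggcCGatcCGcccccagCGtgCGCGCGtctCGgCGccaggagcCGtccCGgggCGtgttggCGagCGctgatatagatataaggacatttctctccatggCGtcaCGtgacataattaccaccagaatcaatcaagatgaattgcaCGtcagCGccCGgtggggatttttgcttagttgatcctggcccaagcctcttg
Hoxa10: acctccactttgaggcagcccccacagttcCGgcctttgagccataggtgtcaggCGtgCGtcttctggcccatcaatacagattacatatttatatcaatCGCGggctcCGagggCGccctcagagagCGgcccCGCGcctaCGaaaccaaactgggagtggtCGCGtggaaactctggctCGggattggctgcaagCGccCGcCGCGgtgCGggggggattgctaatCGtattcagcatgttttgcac
Hoxa2: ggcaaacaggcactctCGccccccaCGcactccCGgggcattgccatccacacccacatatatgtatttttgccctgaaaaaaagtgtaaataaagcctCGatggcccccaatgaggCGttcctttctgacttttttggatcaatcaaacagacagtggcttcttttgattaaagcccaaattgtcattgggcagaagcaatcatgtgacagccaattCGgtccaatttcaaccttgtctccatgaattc

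The stretches hold 13 CG dinucleotides in Hoxd9, 20 in Hoxd11, 20 in Hoxa10 and 6 in Hoxa2. In 300-base promoters (250 bases before to 50 after the start), which RefSeq gave for 22 of the 38 genes in 24 entries, the median was 14.5 CG dinucleotides and 57.7% G+C, beside 7.0 and 52.7% over all 32851 promoters of the same table. The richest were Hoxa13, with 45 CG dinucleotides, and Hoxd13, with 37, and the poorest were Hoxa9, Hoxd4 and the upstream entry of Hoxd11, with 4 each. The 8 Hox entries with an H3K4me3 island in both lists had a median of 27 CG dinucleotides, the 5 with an island after kd alone 15.0, and the 10 with none 11. Their ranges overlapped, at 6 to 45, 9 to 26 and 4 to 22. The remaining entry, of Hoxd3, had an island in control alone and 20 CG dinucleotides. All promoters with an Ezh2 peak in control (1225) had a median of 27.

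The clusters also hold 5 genes of microRNAs that act on Hox mRNAs, and their 4 mature 5p forms fall into 2 groups by seed (bases 2 to 8, in capitals), miR-10 and miR-196.
miR-10a-5p: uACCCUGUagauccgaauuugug
miR-10b-5p: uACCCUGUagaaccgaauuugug
miR-196a-5p: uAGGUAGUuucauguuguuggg
miR-196b-5p: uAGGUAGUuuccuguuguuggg

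Each of the 5 mature loci lay in an H3K27me3 island in both lists, and none in an H3K4me3 or H3K27ac island. The miR-196b-5p locus, inside the Hoxa9 gene model (chr6:52230129-52230150), was the only one of the 5 that also lay in peaks of Smarca4 and Ezh2, in control and after kd. The loci of miR-10a-5p (chr11:96317186-96317208, next to Hoxb4), miR-10b-5p (chr2:74726074-74726096, inside the Hoxd4 gene model) and miR-196a-5p (chr11:96265187-96265208 and chr15:102973365-102973386) were in no peak of either.

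The first question was how much of the clusters each protein or mark occupied. H3K27me3 covered nearly everything, at 99.6% of the spans in control and 98.6% after kd, where the same lists covered 7.17% and 5.31% of the genome. H3K27ac was at the other end, with 0 islands in any of the 4 clusters in either list, against 5.91% and 6.44% of the genome. Ezh2 covered 18.3% of the spans in control and 30.8% after kd (89.3 and 150.7 kb), although it covered 0.134% and 0.197% of the genome. The clusters thus held 2.45% of all bases under Ezh2 peaks in control and 2.81% after kd. H3K4me3 covered 8.67% and 13.3% of the spans, beside 3.71% and 4.94% of the genome, and Smarca4 12.6% and 11.4%, beside 1.8% and 1.49%.

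**Figure D1:**
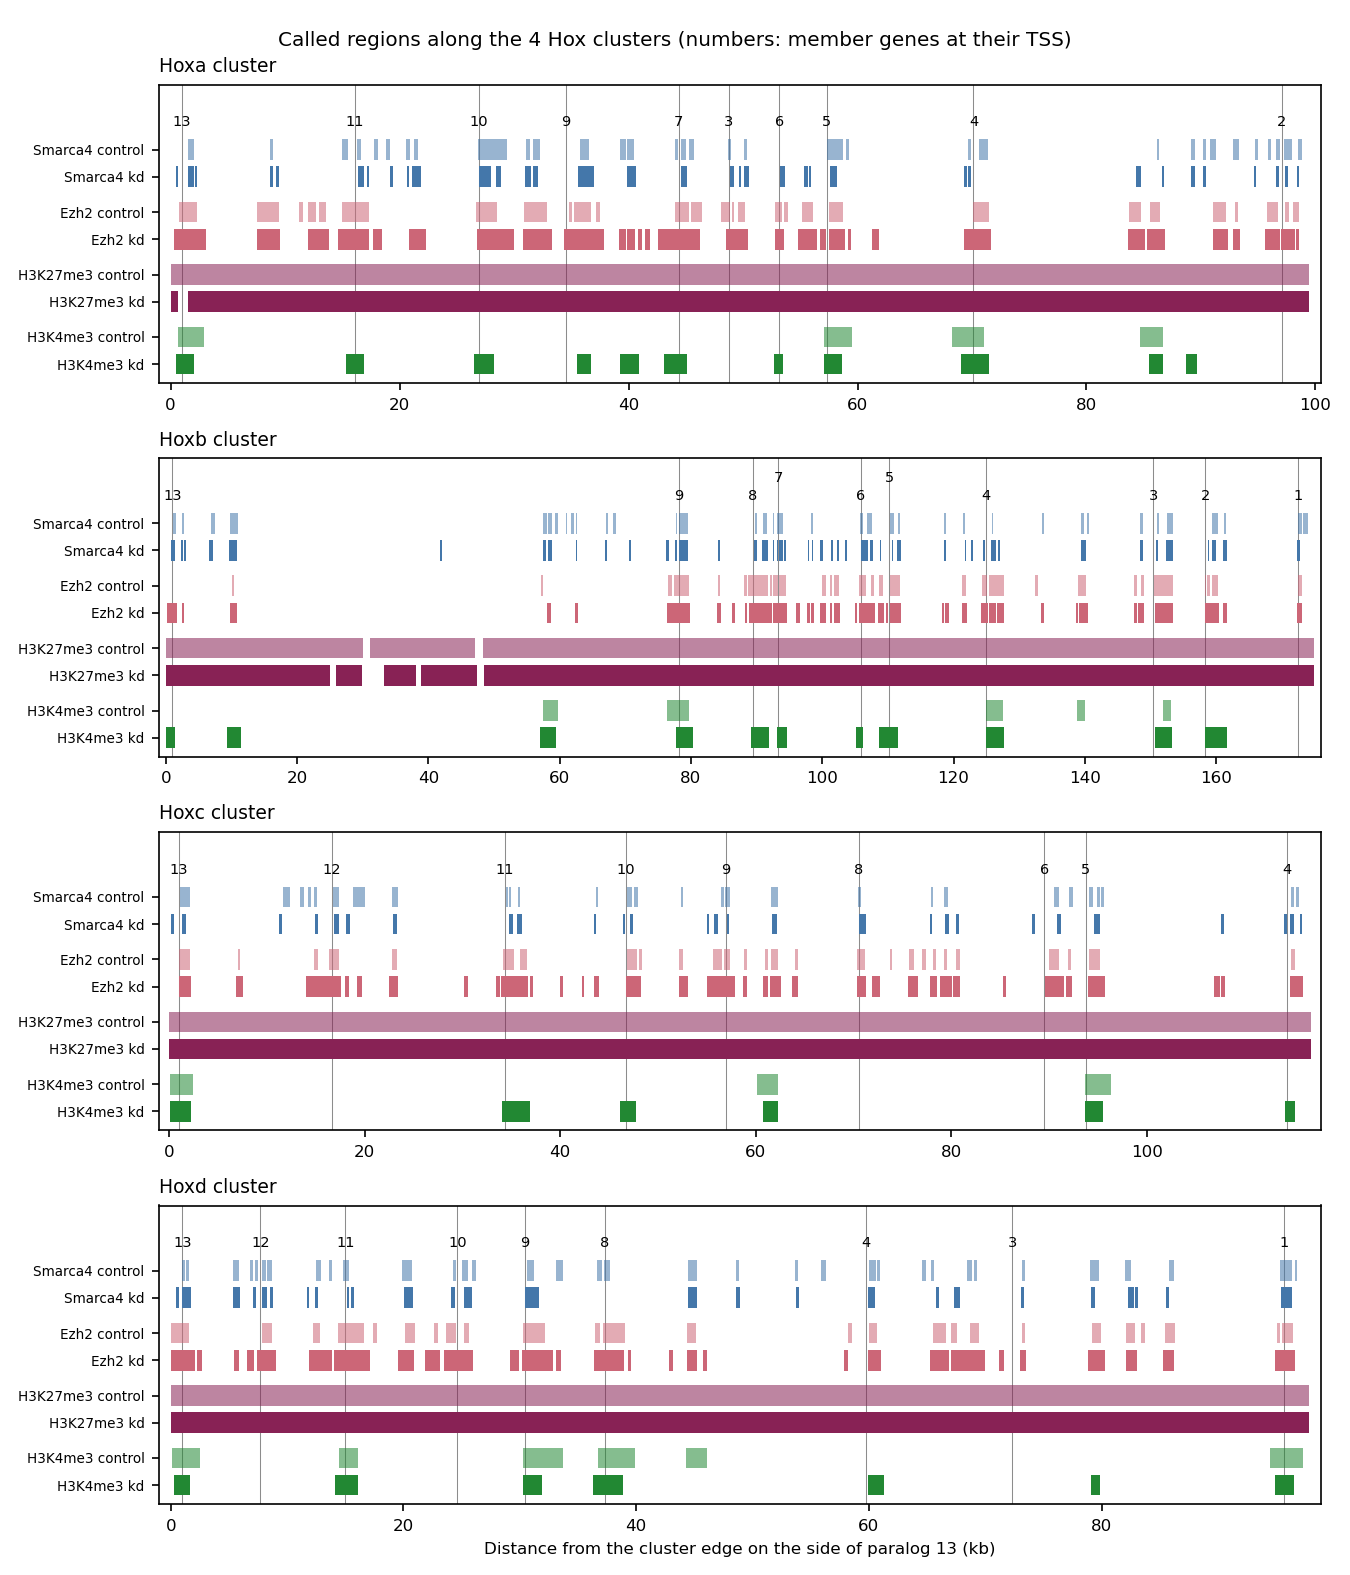
Called regions of Smarca4, Ezh2, H3K27me3 and H3K4me3 in control (pale) and kd (dark) along the 4 clusters, drawn to scale as distance in kb from the cluster edge on the side of paralog 13, with numbered lines at the TSS of the members. H3K27me3 fills the clusters in both lists, Ezh2 blocks are longer after kd, and H3K4me3 islands go from 18 in control to 35 after kd; H3K27ac has no region to draw.

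For Ezh2 every cluster had more covered length in the kd list. The covered share was 27% in control and 44.1% after kd in Hoxa, 14.6% and 21.9% in Hoxb, 13.8% and 27.9% in Hoxc, and 21.3% and 36.6% in Hoxd. The number of peaks was 109 in control (28, 29, 27 and 25 in Hoxa, Hoxb, Hoxc and Hoxd) and 129 after kd (30, 38, 33 and 28). Single peaks were also longer: the median peak had 634 bp in control and 867 bp in the kd list.

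**Figure D2:**
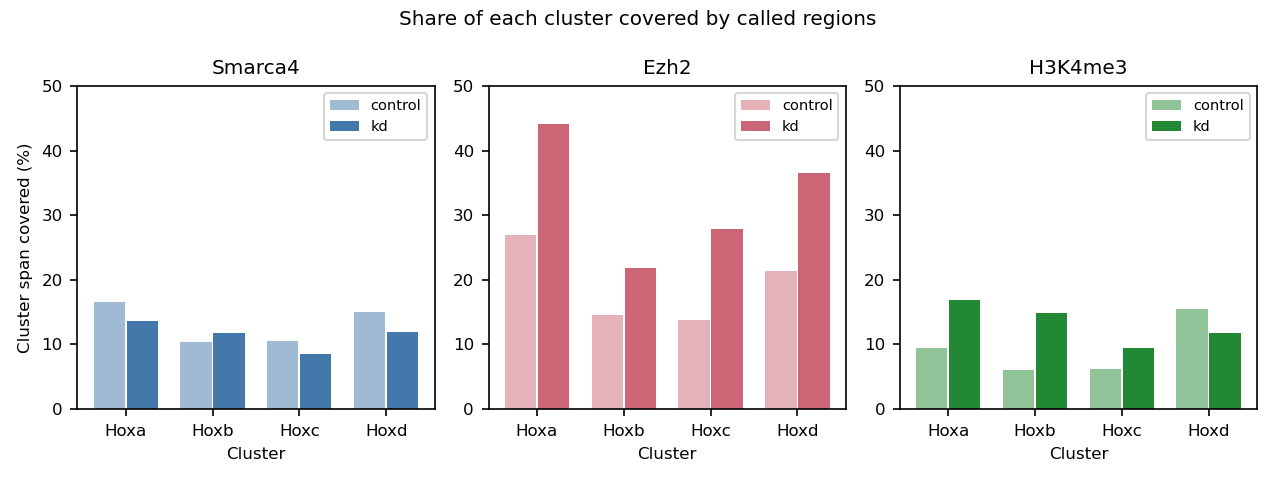
Percentage of each cluster span covered by Smarca4, Ezh2 and H3K4me3 regions, with pale bars for control and dark bars for kd (1 library each, no error bars). Ezh2 bars are higher after kd in all 4 clusters, H3K4me3 bars in Hoxa, Hoxb and Hoxc but not in Hoxd (15.5% in control, 11.7% after kd), and Smarca4 bars only in Hoxb (10.4% and 11.7%).

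When overlapping Ezh2 peaks of both lists were joined into sites, the clusters held 133 sites, of which 80 were called in both lists, 46 after kd alone and 7 in control alone. Of the 80, 74 were longer after kd and 6 shorter. In the median they measured 910 bp in control against 1412 bp in the kd list, a median ratio of 1.5. The 6 shorter sites were 1 at Hoxa6 and 5 in Hoxb, and all shared sites of Hoxc (21) and Hoxd (19) were longer. Over the whole genome 95.8% of 2683 shared Ezh2 sites were longer after kd, with a median ratio of 1.57, so that the Hox clusters went with the list as a whole in this respect.

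**Figure D3:**
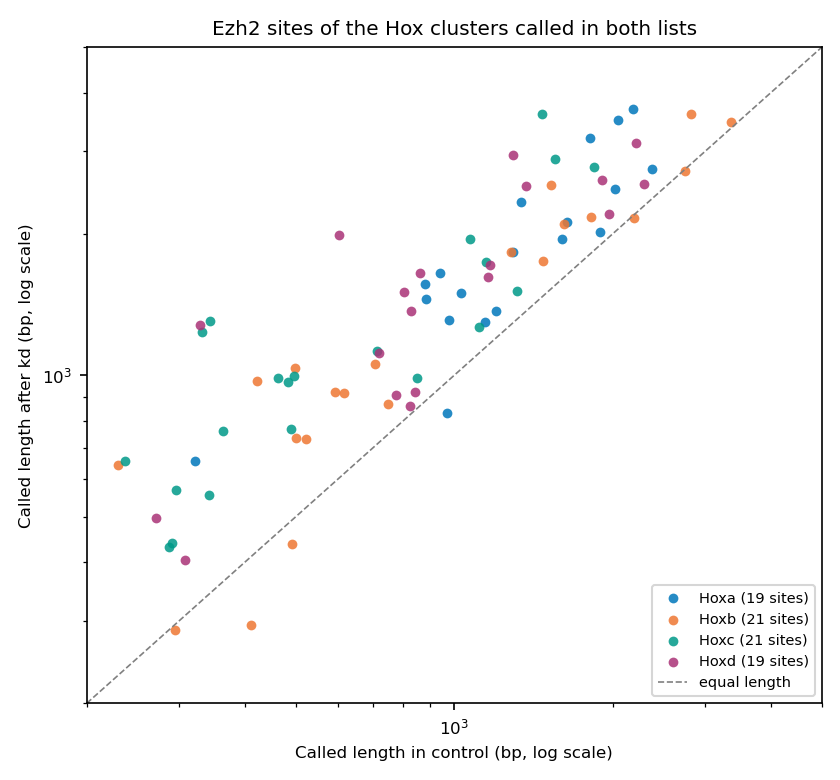
Length of the 80 Ezh2 sites called in both lists, in control (x axis) and after kd (y axis), in bp on log scales, with 1 point per site and a dashed line of equal length. Of the points, 74 lie above the line, and the 6 below it are 5 sites of Hoxb and 1 of Hoxa.

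Few control Ezh2 peaks of the clusters were missing after kd. Of 109 control peaks in the clusters, 7 (6.42%) had no overlap after kd, beside 51.2% of the whole control list. Repeat-masked sequence moved with this difference: 45.9% of all control Ezh2 peaks but 2 of the 109 in the clusters (1.83%) were at least 50% repeat-masked. Among peaks under that limit, a setting chosen after seeing the data, the shares were 5.61% in the clusters and 12.5% in the list. After kd, 46 of 129 Ezh2 peaks (35.7%) had no overlap in control, beside 49.4% of the list. These 46 were short and weak calls: their median length was 438 bp and the median percentile of their score in the kd list 16.3, against 1307 bp and 73.6 for the 83 shared peaks. Of the 46, 1 covered the TSS of a member, against 28 of the 83.

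The highest control score of Ezh2 in the clusters, 1370, belonged to a peak over the start of Hoxd9 (chr2:74697555-74699463), and no peak of the whole control list had a higher score. MACS2 scores rise with the strength of a call but are not scaled between libraries. Next followed Hoxd11, with 627, Hoxa4, with 620, a peak at chr6:52175429-52176306, with 584, which lies inside the Hoxa3 gene model and 10598 bp from the nearest TSS of a member (Hoxa2), and Hoxd8, with 559. After kd the order was Hoxd11 with 1463 (chr2:74681323-74684449), Hoxd8 with 1182, Hoxa4 with 1121 and Hoxd9 with 1027. The clusters held 6 of the 100 highest Ezh2 scores in control and 4 of 100 after kd.

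For single genes, windows of 1 kb on both sides of the TSS of the principal transcript were used besides gene regions. The long gene models of Hoxa3, Hoxc5, Hoxd3 and Hoxd4 run over their neighbours, and 13 of the 38 gene regions overlap another. By gene region Ezh2 was found at 37 of 38 Hox genes in control, where 12.6% of protein-coding genes had a peak, and at 38 of 38 after kd, where 15.4% had one. By promoter window the counts were also 37 and 38, against 7.15% and 12.3% of protein-coding promoters. The gene without a control peak was Hoxb13, the posterior gene that lies apart from the other Hoxb genes, with 3 peaks in its gene region after kd. A peak after kd alone was found at 5.96% of protein-coding gene regions and 5.44% of promoters.

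In 33 of the 38 promoter windows more bases were under Ezh2 peaks after kd, in 4 fewer (Hoxa6, Hoxa10, Hoxb3 and Hoxb8), and in Hoxa11 all 2001 bp in both lists. Of the protein-coding promoters 2622 had more and 110 fewer, so that the Hox count followed the whole list. In the median 1066 bp were covered in control, against 1586 bp in the kd list. Hoxa11, Hoxd10, Hoxd11, Hoxd13, Hoxb9 and Hoxa7 were covered in full after kd, of which Hoxd10 had 1322 bp in control, Hoxd11 1605 bp, Hoxd13 1564 bp, Hoxb9 1781 bp and Hoxa7 1260 bp. The lowest cover in control, beside Hoxb13, was 171 bp at Hoxd3 and 343 bp at Hoxc4, and after kd 609 bp at Hoxd3.

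The highest Ezh2 score in the window was higher after kd at 36 of the 37 promoters called in both lists (6.88% of protein-coding promoters were), with medians of 225.0 and 477.0. Hoxd9 was the exception, with 1370 in control and 1027 after kd. Of 1503 protein-coding promoters called in both lists, 95.7% had the higher score after kd (medians 107.0 and 334.0). Ranked within their own list, the 37 Hox promoters had a median percentile of 91.1 in control and 87.9 after kd, and 20 of them ranked higher after kd and 17 lower. Hoxb2, a hindbrain patterning gene, had the largest shift upwards in percentile, from 34.9 (score 57) to 93.7 (score 656).

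H3K27me3 lay over the clusters as domains much longer than the genes. In control 1 island spanned the whole of Hoxa (188.6 kb), Hoxc (260.4 kb, the widest of the 22909 islands of the list) and Hoxd (138.0 kb), and 3 islands lay over Hoxb (the widest 151.0 kb). The clusters held 4 of the 20 control islands of at least 100 kb, and 4 of the 11 after kd. After kd the number of islands was 2 in Hoxa, 5 in Hoxb, 1 in Hoxc and 1 in Hoxd. Islands of both lists that overlapped were joined into sites, also beyond the spans. The site at Hoxa (chr6:52141201-52330600) held 188600 bp of control islands and 182200 bp of kd islands, that at Hoxc (chr15:102893801-103159000) 260400 and 257000 bp, and that at Hoxd 140000 and 145200 bp. The 3 sites at Hoxb held 91000 and 73400, 16000 and 13400, and 151000 and 145400 bp. The kd list thus covered nearly as much as the control list at Hoxa and Hoxc, more at Hoxd, and less at each site of Hoxb.

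The islands that touch the spans reached past both edges. Past the upper edge they ran on for 67.9 kb in control and 20.9 kb after kd at Hoxa, 24.3 and 18.9 kb at Hoxb, 122.1 and 41.5 kb at Hoxc, and 15.5 and 8.9 kb at Hoxd. Past the lower edge they ran on for 21.2 and 16.2 kb at Hoxa, 60.9 and 32.5 kb at Hoxb, 21.5 and 26.3 kb at Hoxc, and 24.7 and 28.5 kb at Hoxd. At Hoxa, Hoxb, Hoxc and Hoxd further kd islands followed behind gaps within the sites, and at Hoxd control islands did so too. These lengths are therefore where an island ends and not where the mark ends. Within the spans the gaps between islands came to 2200 bp in control, all between Hoxb9 and Hoxb13, and to 6000 bp there and 800 bp in Hoxa after kd. The gap in Hoxa (chr6:52260401-52261200) held the TSS of Hoxa13, a gene of limb and hindgut patterning, and an H3K4me3 island of the kd list covered all 800 bp of it. By gene region 38 of 38 Hox genes held H3K27me3 in both lists (42.4% of protein-coding genes in control and 35.6% after kd), and by promoter window also 38 and 38 (34.2% and 28.4%).

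H3K4me3 was where the gene counts of the 2 lists differed most. By gene region 17 of 38 Hox genes held an island in control, where 63.4% of protein-coding genes did, and 31 of 38 after kd, where 68.1% did. All 17 were among the 31, and the other 14 genes (36.8%) had an island after kd alone, against 5.49% of protein-coding genes. In control alone there was 0 of 38, beside 0.825%. By promoter window the counts were 12 and 28 (55.4% and 59.2% of protein-coding promoters), with 16 after kd alone (42.1%, beside 4.58%).

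This count depended on weak calls in the longer kd list. With the kd list shortened to its 26130 strongest islands the number of genes with a region after kd alone was 6 (Hoxa7, Hoxa10, Hoxb2, Hoxb7, Hoxb8 and Hoxc11), beside 3.53% of protein-coding genes, and Hoxd4 was then called in control alone. With a limit of 20 on −log10 of the p-value in both lists it was 8, beside 6.43%. By promoter window the 16 after kd alone became 7 with equal lists (3.18% of protein-coding promoters) and 9 under this stricter limit (5.8%).

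The 12 promoters with H3K4me3 in both lists, where 54.6% of protein-coding promoters had it, were Hoxa4, Hoxa5, Hoxa13, Hoxb4, Hoxb9, Hoxc5, Hoxc13, Hoxd1, Hoxd8, Hoxd9, Hoxd11 and Hoxd13. The 16 with an island after kd alone were Hoxa6, Hoxa7, Hoxa9, Hoxa10 and Hoxa11 in Hoxa, Hoxb2, Hoxb3, Hoxb5, Hoxb6, Hoxb7, Hoxb8 and Hoxb13 in Hoxb, Hoxc4, Hoxc10 and Hoxc11 in Hoxc, and Hoxd4 in Hoxd. The remaining 10, with none in either list, were Hoxa2, Hoxa3, Hoxb1, Hoxc6, Hoxc8, Hoxc9, Hoxc12, Hoxd3, Hoxd10 and Hoxd12. Hoxa9 counts by 31 bp of its window only. In Hoxa 3 of 10 promoters were called in control and 8 of 10 after kd, in Hoxb 2 and 9 of 10, in Hoxc 2 and 5 of 9, and in Hoxd 5 and 6 of 9.

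**Figure D4:**
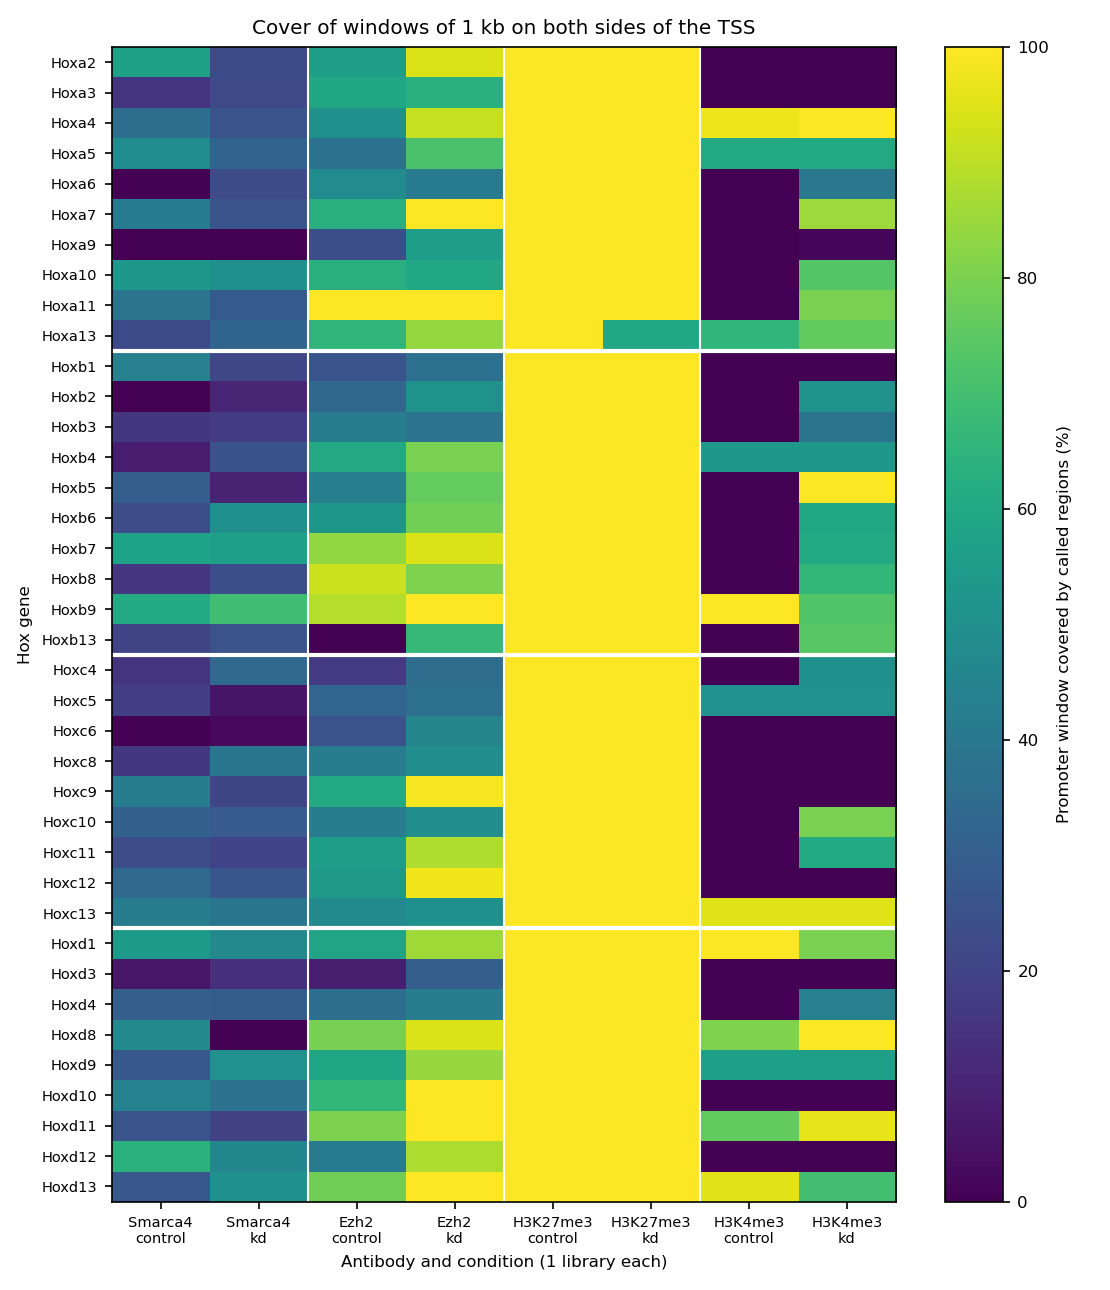
Percentage of the 2001-bp window around the TSS of each of the 38 Hox genes (rows, by cluster) that is covered by regions of each antibody and condition (columns), from dark (0%) to yellow (100%). H3K27me3 is at 100% everywhere but at Hoxa13 after kd, and 16 genes are at 0% for H3K4me3 in control and above it after kd, Hoxa9 by 31 bp only.

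Along the axis, the order of H3K4me3 depended on the window. By promoter, of the 7 genes of paralog groups 1 to 3, 1 promoter was called in control and 3 after kd; of the 15 of groups 4 to 8, 5 and 13; and of the 16 of groups 9 to 13, 6 and 12. By gene region, where long models take in islands of their neighbours, 4 of the 7 anterior, 6 of the 15 central and 7 of the 16 posterior genes were called in control, and 5, 13 and 13 after kd. These differences were not tested. Among paralogs, groups 4 (4 genes), 5 (3 genes), 7 (2 genes), 11 (3 genes) and 13 (4 genes) had an island at every member after kd, while both genes of group 12 had none in either list. Of the complete groups only group 7 stayed so with lists of equal length or under the stricter limit. Hoxc4, Hoxd4, Hoxb5, Hoxa11 and Hoxb13 were then no longer called after kd. Ezh2 had a median promoter cover of 41.9%, 48.4% and 59.8% in anterior, central and posterior genes in control and of 51.2%, 76.3% and 87.7% after kd.

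H3K4me3 islands after kd were more numerous, and shorter except in Hoxb. The clusters held 18 islands in control, from 1200 to 3400 bp, and 35 after kd, from 800 to 3400 bp, with median lengths of 2400 and 1600 bp. Of 16 sites called in both lists 12 were shorter and 4 longer after kd (median ratio 0.75), whereas over the genome 47.9% of 23019 shared sites were longer (median ratio 1.00). In Hoxb the median island had 2200 bp in control and 2600 bp in the kd list, and 3 of 4 shared sites were longer. The p-value was lower after kd at all 12 promoters called in both lists: the median of −log10 p was 54.7 in control and 116.5 after kd, and over 11935 protein-coding promoters 130.7 and 203.2, with 69.2% higher after kd. Hoxa4 had the largest value in the kd list, 281.8, against 118.0 in control, and Hoxd8 had 121.4 in control and 223.2 after kd. The median percentile of these promoters in their own list was 50.1 in control and 64.3 after kd.

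**Figure D5:**
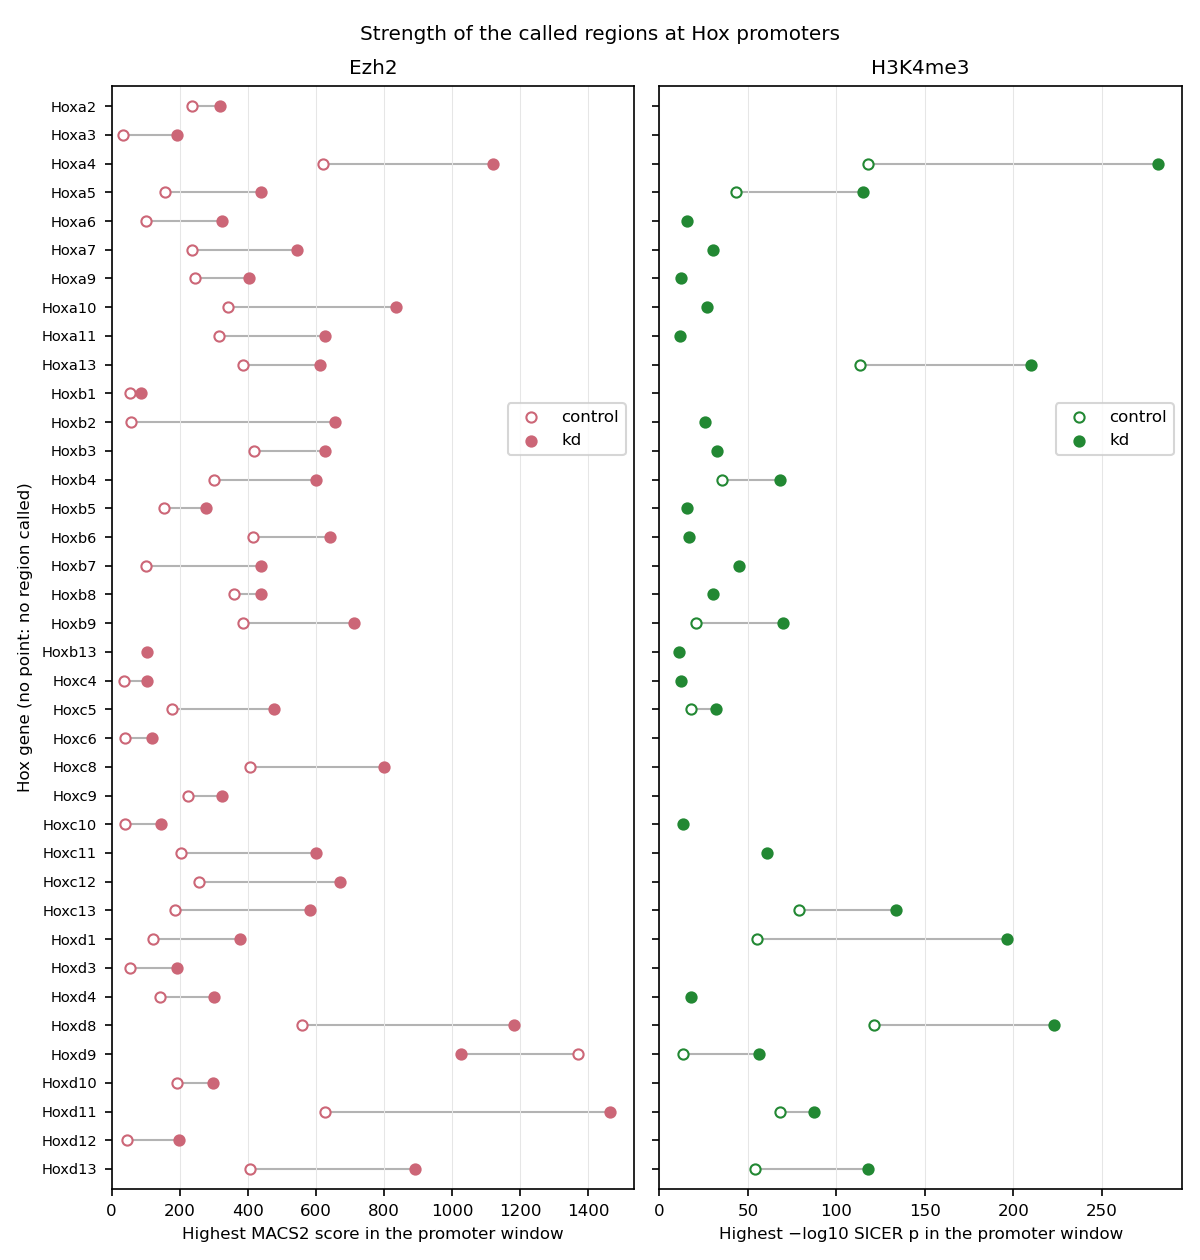
Highest MACS2 score of Ezh2 (left) and highest −log10 SICER p of H3K4me3 (right) in the promoter window of each Hox gene, with open points for control, filled points for kd and no point where nothing was called. Ezh2 points lie further right after kd at 36 of 37 genes, Hoxd9 excepted, and the 16 H3K4me3 points that stand alone are kd calls from 10.9 to 61.0; values are not scaled between libraries.

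Of the 35 kd islands 19 (54.3%) had no overlap in control, beside 29.8% of the kd list and 18.3% of its islands under 50% repeat-masked sequence, and 0 of the 35 exceeded that limit. The 19 became 8 with lists of equal length and 10 under the stricter limit. Of the 19, 13 covered the TSS of a member and 16 overlapped an Ezh2 peak of the control list. Their median percentile in the kd list was 20.6, from 3.3 to 49.8, against 59.8 for the 16 shared islands. The highest −log10 p among promoters called after kd alone was 61.0 at Hoxc11, followed by 45.2 at Hoxb7, 32.6 at Hoxb3, 30.3 at Hoxb8 and 30.0 at Hoxa7. The lowest was 10.9 at Hoxb13. Only 2 control islands had no overlap after kd, at chr2:74711601-74713400, where the gene models of Hoxd3 and Hoxd4 begin, and at chr11:96332201-96333400, inside the Hoxb3 gene model.

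As promoter states, 12 of 38 Hox promoters (31.6%) carried both H3K4me3 and H3K27me3 in control and 28 (73.7%) after kd, and the others, 26 and 10, carried H3K27me3 without H3K4me3. Since H3K27me3 was at every Hox promoter, this is the H3K4me3 count again, and it was 19 after kd with lists of equal length and 19 under the stricter threshold (10 in control). Over protein-coding genes both marks were found at 20.6% and 21% of promoters, and H3K27me3 without H3K4me3 at 13.6% and 7.41%. Each bivalent Hox promoter also had an Ezh2 peak, in both lists, as did 1364 of 4492 bivalent protein-coding promoters in control and 2560 of 4579 after kd. By these windows no Hox promoter had H3K4me3 without H3K27me3, a state of 34.9% and 38.2% of protein-coding promoters. The window of Hoxa13 after kd counts by 1201 bp of H3K27me3 beside the gap described above. Its TSS itself lay in that gap, under H3K4me3 without H3K27me3. Promoters with H3K4me3 in both lists had the highest median Ezh2 score, at 385.0 in control and 663.0 after kd, against 179.5 and 438.0 at those called after kd alone and 123.5 and 247.5 at those never called.

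Other developmental gene families were compared by the same windows. Among 96 other homeobox genes, H3K4me3 was found at 71 promoters (74%) in control and 89 (92.7%) after kd, and among 44 Fox genes at 31 (70.5%) and 34 (77.3%). H3K27me3 was at 100% of both Hox and other homeobox promoters in control and at 77.3% of Fox promoters, and Ezh2 at 97.4%, 87.5% and 43.2%. An H3K27ac island after kd was found at 0 of 38 Hox, 8 of 96 other homeobox and 14 of 44 Fox promoters (in control at 0, 1 and 3). Protein-coding promoters had H3K27ac in 15.3% of cases in control and 29.9% after kd, and gene regions in 32.4% and 48.2%.

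The nearest H3K27ac islands lay outside the clusters. Their distance to the span was 55.2 kb in control and 24 kb after kd for Hoxa, 58.1 and 3.3 kb for Hoxb, 165.9 and 125.7 kb for Hoxc, and 76.5 and 24.9 kb for Hoxd. The closest was the kd island at chr11:96189601-96190000, on the side of Hoxb13. The kd list of H3K27ac was the longer of the 2, and the part of list length in these distances was not tested.

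Smarca4 peaks were spread through all 4 clusters, at 131 in control and 135 after kd (33 and 34 in Hoxa, 36 and 48 in Hoxb, 28 and 27 in Hoxc, 34 and 26 in Hoxd). They were 26.8 and 27.6 per 100 kb, beside 2.9 and 2.65 in the genome, but none was among the 100 highest scores of its list. Of them 43 (32.8%) had no overlap after kd and 46 (34.1%) none in control, beside 43.9% and 35.6% of the whole lists. Among peaks under 50% repeat-masked sequence the list shares were 44.8% and 28.4%, and the cluster shares were unchanged. Lengths at the 84 sites in both lists hardly differed: medians of 433 bp in control and 428 bp in the kd list, 40 were longer and 44 shorter.

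By gene region 37 of 38 Hox genes held a Smarca4 peak in control (70.3% of protein-coding genes) and 37 after kd (71.7%). Hoxd8 was called in control alone, with 2 peaks (2.45% of protein-coding genes were), and Hoxa6 after kd alone, also with 2 (3.85%). By promoter window 34 were called in control and 36 after kd (61.3% and 62.2% of protein-coding promoters), and Hoxa9 in neither. The highest control score was 399 at chr11:96251481-96252181, 19276 bp from the TSS of Hoxb9, in the stretch between Hoxb9 and Hoxb13, and the same place had 171 after kd. At promoters the highest control scores were Hoxb9 with 269 in control and 140 after kd, Hoxa5 with 217 and 104, Hoxd1 with 211 and 117 and Hoxa10 with 207 and 78. The highest kd scores were Hoxc13 with 210 (103 in control), Hoxb6 with 159 (81) and Hoxc8 with 150 (51). Of 33 promoters called in both lists (58.6% of protein-coding promoters were), 14 had a higher score after kd and 19 a lower one, beside 6553 higher and 6202 lower of 12812 protein-coding promoters.

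Smarca4 and Ezh2 peaks of the clusters often overlapped. Of the Smarca4 peaks 84 of 131 (64.1%) overlapped Ezh2 in control and 115 of 135 (85.2%) after kd, beside 4.21% and 8.32% of the whole lists. Ezh2 peaks were longer after kd, and the part of their length in this overlap was not tested. In the other direction 69 of 109 Ezh2 peaks (63.3%) and 82 of 129 (63.6%) overlapped Smarca4, where the whole lists had 44.5% and 86.6%. Both were found at 33 of 38 Hox promoters in control and 36 after kd, beside 6.94% and 12.1% of protein-coding promoters. Ezh2 without Smarca4, found at 0.215% and 0.252% of protein-coding promoters, was found at Hoxa6, Hoxa9, Hoxb2 and Hoxc6 in control and at Hoxa9 and Hoxd8 after kd. Of the H3K4me3 islands 17 of 18 in control and 34 of 35 after kd overlapped Ezh2, beside 7.4% and 11.8% of the lists.

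Peaks were not confined to promoters. Within 1 kb of a member's TSS lay 42.7% of the Smarca4 peaks and 47.7% of the Ezh2 peaks in control (40% and 39.5% after kd), but 66.7% of the H3K4me3 islands in control and 80% after kd. In no gene region of a member lay 28 Smarca4 peaks in each list, and 17 Ezh2 peaks in control and 24 after kd. The 73.0 kb between the gene regions of Hoxb13 and Hoxb9 held 10 Smarca4 peaks in control and 9 after kd, but 3 and 4 of Ezh2, which covered 1.69% and 3.82% of it. H3K27me3 covered 97% and 91.8% of this stretch.

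Part of the binding consensus of CTCF, the factor that divides Hox clusters into insulated stretches, was searched as AGGNGGCAG on both strands. The spans hold 57 matches, of which 12 lay in a Smarca4 peak in control, 10 after kd and 8 in both. In the central 500 bp of the cluster peaks a match was found in 12 of 131 (9.16%) in control and 8 of 135 (5.93%) after kd, beside 7.8% and 7.61% of all Smarca4 peaks.

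The wider Hox pathway was read by gene region. Over protein-coding genes the shares in control and after kd were 63.4% and 68.1% for H3K4me3 and 70.3% and 71.7% for Smarca4. For Ezh2 they were 12.6% and 15.4%, for H3K27ac 32.4% and 48.2%, and for H3K27me3 42.4% and 35.6%. The counts below were not tested against these shares. The cofactors of the TALE class (Pbx, Meis and Pknox genes), which bind DNA together with Hox proteins, held H3K4me3 at 9 of 9 and Smarca4 at 9 of 9 genes in both lists. H3K27me3 was found at 8 of 9 in control and 7 of 9 after kd, with Pbx2 called in control alone. Ezh2 was found at 3 of 9 in control (Meis1, Meis2 and Pknox2) and also at Pbx3 after kd, and H3K27ac at 5 of 9 in each list, with Meis1 called in control alone and Pbx2 after kd alone. Of 8 regulators upstream of Hox genes, Ezh2 was found at Cdx1, Cdx2 and Cyp26a1 in control and at Cdx4, Rarb and Gdf11 as well after kd. H3K4me3 was found at 6 of these 8 in control and 8 after kd, with Cdx1 and Cdx4 called after kd alone, and H3K27ac at 2 and 5. H3K27me3 was found at 7 of the 8 in both lists. Evx1 and Evx2, the homeobox genes that flank Hoxa13 and Hoxd13, held Ezh2, H3K27me3 and Smarca4 in both lists and no H3K27ac. Evx2 had an H3K4me3 island after kd alone.

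Over all annotated genes, gene regions held Ezh2 in 6.96% of cases in control and 8.06% after kd, and Smarca4 in 38.9% and 39.4%. Of 12 non-coding transcripts of the clusters, 12 held H3K27me3 in both lists, which covered 99.6% and 98.6% of the spans. Ezh2 was found at 9 of the transcripts and Smarca4 at 8 in each list, with Mir196a-2 held by Smarca4 in control alone and Mir10a after kd alone. Mir10a, Mir10b and Mir196a-2 count by parts of their gene regions outside the mature loci. H3K4me3 was found at 3 in control (Hotairm1, Haglr and Hoxaas3) and at Hoxb5os and Hoxa11os as well after kd. These antisense models overlap Hox genes, and the lists do not tell which transcript a region belongs to. Hotair, the lincRNA between Hoxc11 and Hoxc12, held H3K27me3 only, of the 5 lists in each condition.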

How the data were processed

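Peak lists of 10 ChIP-seq libraries were used, and 4 of the 14 samples, which serve as background, had no file used here. The authors trimmed reads with Trim Galore, aligned them to mm10 with Bowtie2, kept unique alignments with samtools 1.9 and called regions per library. The deposited Smarca4 and Ezh2 files hold MACS2 peaks with a score, and the deposited H3K27me3, H3K27ac and H3K4me3 files hold SICER islands (window 200, gap 600) with a p-value. The methods name input as background, while the labels and peak names also name IgG. Per the study's methods, Smarca4 and H3K27me3 were immunoprecipitated by a company and the other antibodies in the laboratory, so that levels of different antibodies were not compared.

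Regions were placed on GENCODE M21 (GRCm38) with python 3.11.15 and numpy 2.4.6, and the overlap counts were tested on simulated data. Lines off the main chromosomes were left out, at most 61 per list. All listed Hox genes are named, with cofactors, upstream regulators, Evx1, Evx2 and non-coding transcripts. The members and lists were chosen with earlier results of these data known. 1 further gene of the Hoxa cluster is not reported here. Promoter windows, the count after kd alone and the repeat limit were chosen after seeing the data. No read counts were used, so that counting error is unknown. Of the 38 genes, 22 had a RefSeq promoter entry, and Hoxa4, Hoxb2, Hoxb3, Hoxb5, Hoxb6, Hoxb7, Hoxb9, Hoxb13, Hoxc5, Hoxc6, Hoxc8, Hoxc9, Hoxc10, Hoxc11, Hoxc12 and Hoxc13 had none.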

Additional observations from a re-analysis of the deposited data

How the results depend on the processing

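No paired analysis was possible because each antibody and condition has 1 library, and for the same reason no replicate could be left out. Of 179 values under another setting 151 stayed within 1.5 times (counts) or within the 95% binomial interval (percentages) of those given above. The interval is a yardstick only, since the bases of a span are not independent draws and it measures no spread between samples. Many of the 151 could hardly move: H3K27ac values began at 0, and H3K27me3 was at all 38 genes with 0 islands without overlap. The 151 also include genes with H3K4me3 after kd, 31 against 22 with lists of equal length and 21 with the stricter threshold. Ezh2 peaks of the kd list alone, 46 against 60 with lists of equal length, are among them too. With regions up to 1 kb apart joined, the percentage of the clusters covered was 22.1% for Ezh2 in control, 17.5% and 16.2% for Smarca4 in control and after kd, and 99.3% for H3K27me3 after kd, and the regions without overlap were 3 and 17 for Ezh2, 12 and 16 for Smarca4. With stricter thresholds the cover was 9.87% and 7.48% for Smarca4, 9.94% for H3K4me3 after kd and 96.8% for H3K27me3 after kd, and the regions without overlap were 28 for Smarca4 after kd and 0 and 10 for H3K4me3. With lists of equal length H3K4me3 after kd covered 10.1%, with 8 islands without overlap. The genes with H3K4me3 after kd alone were 8 under the stricter threshold and 6 with equal lists, against 14. With regions within 500 bp counted as shared, 2 Ezh2 control peaks and 18 and 24 Smarca4 peaks were left. With spans widened by 20 kb Ezh2 covered 14.7% and 25.3%. Without Hoxb13, Ezh2 covered 35.5% after kd, and H3K27me3 100% and 99.8%. With windows around the gene TSS, H3K4me3 was found at 20 of the 38 genes after kd. The cause was not tested. Depth is unknown and limits every count of missing regions.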
